A study of Mus musculus with 10 samples.

Results

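The AP-1 transcription factors described here are 10 genes: Fos, Fosb, Fosl1, Fosl2, Jun, Junb, Jund, Batf3, Atf3 and Jdp2. They were taken by symbol from a table of 23393 named genes, and all 10 were found. Their mRNA was compared between IL-22-producing CD4+ T cells with 1 intact copy of Riok2 (Riok2hKO, 5 libraries, genotype Riok2f/+ Vav1cre/+ Il22tdtomato/+) and with both copies (WT, 5 libraries, genotype Riok2+/+ Vav1cre/+ Il22tdtomato/+). All mice were C57BL/6 and 10 weeks old. Cells of both groups therefore carried Vav1-driven Cre, which acts throughout the blood lineage and not in T cells alone, and a tdTomato reporter allele of Il22. Riok2 encodes an atypical kinase used in late maturation of the small ribosomal subunit. Naive splenic CD4+ cells were activated through CD3 and CD28 in a Th22 medium with IL-6 at 30 ng/mL, IL-23 and IL-1b at 20 ng/mL each, 400 nM FICZ (which activates the receptor AHR) and antibodies to IL-4 and IFN-g, and 5000 tdTomato-positive cells were sorted per library. Whether each library is its own mouse or culture is not stated in the labels, so the p-values measure library-to-library spread only, and that spread may be technical.

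AP-1 is a family of dimers. Each protein has a basic region that contacts DNA and a leucine zipper that holds a partner. FOS proteins cannot pair with each other and bind DNA with a JUN partner, whereas JUN proteins also pair among themselves. BATF3, ATF3 and JDP2 pair with JUN proteins, and in mouse T cells BATF proteins with a JUN partner bind DNA beside IRF4 or IRF8. T cell receptor and costimulatory signals raise AP-1 through MAP kinases, and AP-1 then acts with NFAT at cytokine genes. In mouse Th17 cells, relatives of Th22 cells, BATF and JUNB are needed for the programme that responds to IL-23.

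Levels are in TPM, transcript abundance per length scaled to the same total in every library, so levels of different genes can be set side by side with length allowed for. The part of base composition and mapping in differences between genes, as in shares and orders of the members, was not tested. The depth behind the levels is unknown. Between 13968 and 14717 of the table's rows were above 0 TPM in a library and 10282 to 10352 reached 1 TPM. Riok2 averaged 13.6 ± 1.71 TPM in Riok2hKO and 28.3 ± 1.57 TPM in WT (SD, n = 5 each). The sum of 8 T cell markers was 1893 to 1907 TPM in Riok2hKO and 1955 to 2008 TPM in WT, and that of 8 Th22 and Th17 markers 1157 to 1541 TPM in Riok2hKO and 345 to 429 TPM in WT. Both sums moved with genotype, and their part in the results was not tested. Ahr, the gene of AHR, was at 0.642 TPM in Riok2hKO and 0.414 TPM in WT. Markers of other cells were low. The sum of 6 B cell markers was 4.89 to 6.30 TPM in Riok2hKO and 4.04 to 6.19 TPM in WT, that of 7 myeloid markers 2.95 to 3.89 TPM in Riok2hKO and 2.0 to 3.67 TPM in WT, and that of 6 CD8 and NK cell markers, nearly all from Cd8b1, 12.5 to 16.6 TPM in Riok2hKO and 19.2 to 21.0 TPM in WT.

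Batf3, Jun and Fosl2 were higher in Riok2hKO cells and Atf3 was lower, while Junb, at 92.8% or more of the family's summed TPM in every library, had a ratio of means of 1.06 and did not pass the test. Of the 10 members, 8 reached 1 TPM in at least 5 libraries and were tested with limma on log2(TPM + 1), with p-values adjusted over all 10332 tested genes and called at an adjusted p under 0.05. Fosb and Jdp2 did not reach that level and were not tested. Of the 8, 3 were higher and 1 was lower in Riok2hKO, against 9.58% higher and 7.55% lower among all tested genes (17.1% either way). The median log2 fold change of the 8 was 0.14, against -0.0060 for all tested genes. In bulk RNA, fewer cells that make a transcript and less of it per cell cannot be told apart.

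**Figure D1:**
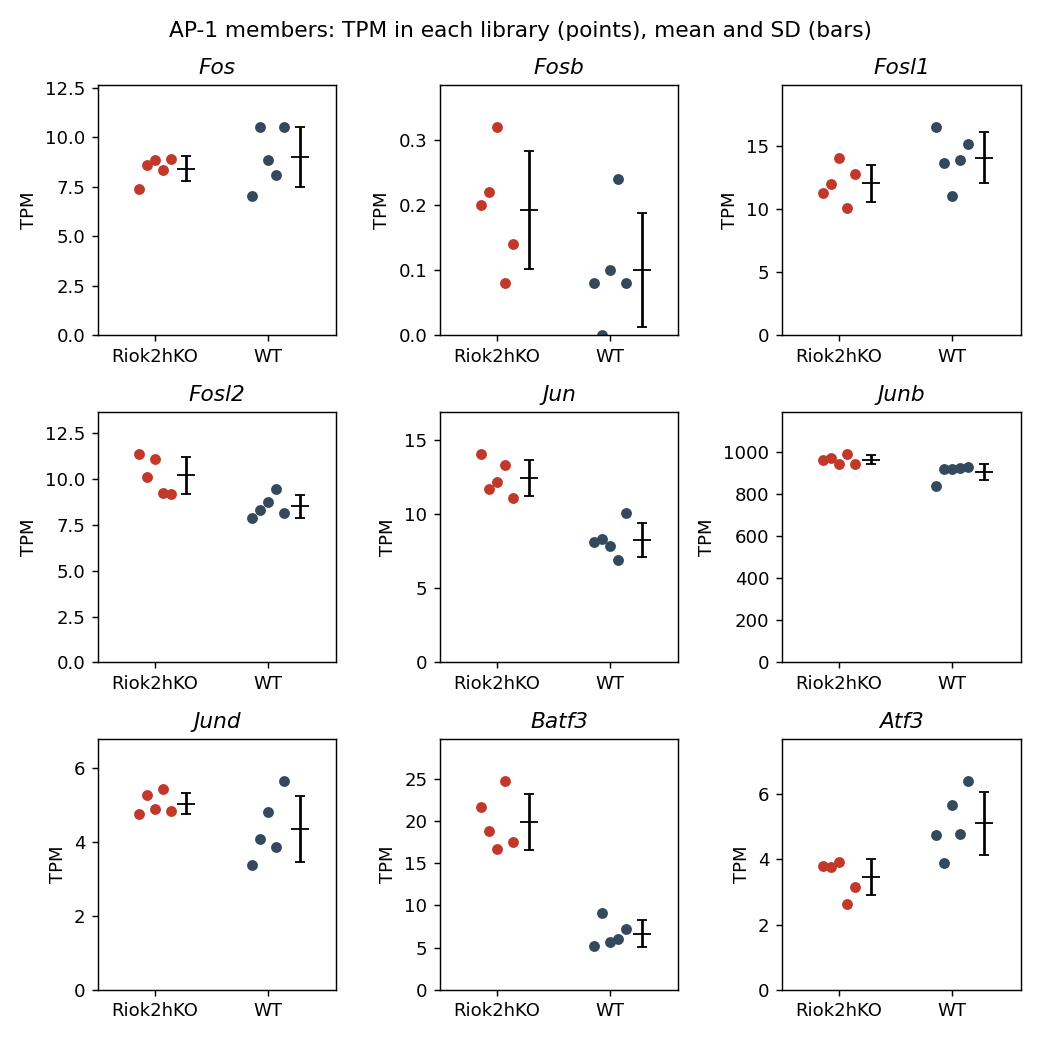
TPM of 9 AP-1 members in each of the 5 Riok2hKO libraries (red) and the 5 WT libraries (dark blue), with the mean and SD beside the points. Riok2hKO and WT points are apart for Batf3, Jun and Junb, and overlap for the other members shown. Jdp2 was listed at 0 in every library and is not drawn.

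**Figure D2:**
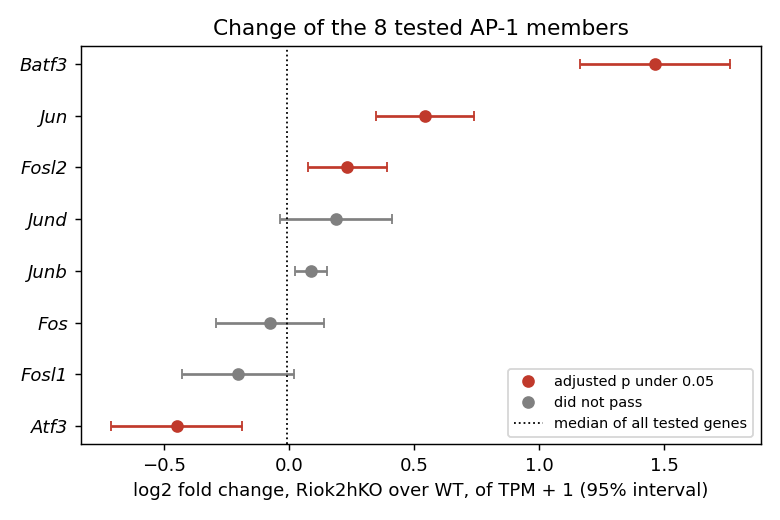
Log2 fold change, Riok2hKO over WT, of the 8 tested members on the log2(TPM + 1) scale, with 95% intervals from limma. Batf3 stands at 1.46 and Atf3 at -0.45. The dotted line is the median of all tested genes, -0.0060.

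The sequences just upstream of the 4 genes that passed are shown because they are the regions through which AP-1 genes are known to be switched on, often by AP-1 and ATF proteins themselves. Each is the 250 bases before the RefSeq start on GRCm38.p6, 5′ to 3′ on the gene's own strand: chr1:191098164-191098413 on the plus strand for Batf3, chr4:95052223-95052472 on the minus strand for Jun, chr5:32136222-32136471 on the plus strand for Fosl2 and chr1:191183334-191183583 on the minus strand for Atf3. Capitals mark TNACNTCA, a form that covers the AP-1 and ATF sites known in the Jun and Atf3 promoters and was chosen after these sequences were read.
Batf3: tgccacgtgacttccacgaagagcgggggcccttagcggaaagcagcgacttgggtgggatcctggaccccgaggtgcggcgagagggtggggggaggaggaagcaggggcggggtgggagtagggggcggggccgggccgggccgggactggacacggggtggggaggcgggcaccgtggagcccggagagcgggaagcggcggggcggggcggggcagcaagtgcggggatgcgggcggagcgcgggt
Jun: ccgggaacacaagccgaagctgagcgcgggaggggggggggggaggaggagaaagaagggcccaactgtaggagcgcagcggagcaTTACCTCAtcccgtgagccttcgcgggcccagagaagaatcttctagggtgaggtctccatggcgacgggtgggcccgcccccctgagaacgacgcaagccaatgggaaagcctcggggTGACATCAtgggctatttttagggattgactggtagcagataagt
Fosl2: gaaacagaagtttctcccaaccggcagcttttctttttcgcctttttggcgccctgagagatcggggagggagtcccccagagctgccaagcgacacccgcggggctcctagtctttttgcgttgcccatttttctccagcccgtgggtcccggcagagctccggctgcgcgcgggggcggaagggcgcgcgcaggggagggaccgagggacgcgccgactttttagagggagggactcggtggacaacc
Atf3: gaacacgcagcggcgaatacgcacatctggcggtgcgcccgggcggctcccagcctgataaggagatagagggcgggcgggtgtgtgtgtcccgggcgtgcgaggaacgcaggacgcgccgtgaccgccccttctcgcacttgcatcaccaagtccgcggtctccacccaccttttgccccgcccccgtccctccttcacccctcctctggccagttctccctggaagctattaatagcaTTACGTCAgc
The Jun window held 2 matches, the first base of one 164 bases and of the other 45 bases before the start. The Atf3 window held 1 match, with its first base 10 bases before the start. The Batf3 and Fosl2 windows held 0. Since the form was chosen to cover the Jun and Atf3 sites, their matches were fixed by that choice and are shown only to place the sites. The form was in 13.99% of all 32851 windows on either strand. RefSeq had a window for 9 of the 10 members. The strict sites TGACGTCA and TGANTCA were in 0 of the members' 11 windows and in 1.55% and 6.75% of all windows. A match describes letters and is not evidence of binding. The Batf3 window was 76.0% G and C, against 61.2% for Jun, 65.2% for Atf3 and 64.4% for Fosl2.

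Batf3 rose the most of the family. BATF3 is a small factor made of little more than the basic region and zipper, best known in mice for the development of dendritic cells that cross-present antigen. Batf3 (chromosome 1, 191098414 to 191108943) measured 21.67, 18.90, 16.67, 24.78 and 17.50 TPM in the Riok2hKO libraries, against 5.18, 9.15, 5.68, 5.97 and 7.23 TPM in the WT libraries. Every Riok2hKO library was above every WT library, and the lowest Riok2hKO value was 16.7 TPM where the highest WT value was 9.15. The means were 19.9 ± 3.32 TPM in Riok2hKO and 6.64 ± 1.59 TPM in WT (SD, n = 5 each), a 2.997-fold ratio of means. The log2 fold change was 1.46 (SE 0.138, 95% interval 1.16 to 1.76, limma adjusted p = 4.43e-05), rank 17 among the 990 genes called higher. The sum of 7 markers of dendritic cells was 0.980 to 1.62 TPM in Riok2hKO and 0.990 to 1.77 TPM in WT. Single markers went both ways at levels too low to be tested. Clec9a was at 0 TPM in Riok2hKO and 0.022 TPM in WT, and Xcr1 at 0.418 and 0.33 TPM. The part of such cells in the Batf3 value was not tested. The Batf3 transcript used here has 62.8% G and C, more than 99.1% of tested genes. Among the 85 tested genes with at least that GC content 12 were higher and 3 lower (median log2 fold change 0.064), against 917 higher and 724 lower of the 9309 below it. The part of base composition in the Batf3 value was not tested.

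Its relative Batf, which encodes the BATF protein of Th17 differentiation and is not one of the 10, was far more abundant and nearly level. Batf averaged 532 ± 8.69 TPM in Riok2hKO and 537 ± 22.7 TPM in WT (log2 fold change -0.013, 95% interval -0.076 to 0.050, limma adjusted p = 0.797). Batf exceeded Batf3 by 22.0 to 31.5 times in the Riok2hKO libraries and by 59.95 to 109.8 times in the WT libraries. These ranges do not meet, so the BATF-type mRNA in Riok2hKO cells held a larger share of Batf3 while remaining mostly Batf.

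Atf3 moved the other way. ATF3 is induced by stress, in part through ATF4, and as a dimer with itself it represses transcription. Atf3 (chromosome 1, 191170296 to 191183333) measured 3.79, 3.78, 3.93, 2.63 and 3.16 TPM in Riok2hKO, against 4.75, 3.90, 5.68, 4.79 and 6.41 TPM in WT. The groups met at one point: 4 Riok2hKO libraries lay below all WT libraries, and Riok2hKO replicate 3, at 3.93 TPM, was just above WT replicate 2. The means were 3.46 ± 0.550 TPM in Riok2hKO and 5.11 ± 0.963 TPM in WT (SD, n = 5 each; log2 fold change -0.45, SE 0.120, limma adjusted p = 0.0237). Its call ended without Riok2hKO replicate 4 (adjusted p = 0.0580) or 5 (0.0524), or without WT replicate 3 (0.0515) or 5 (0.0519), and with a filter that admits every gene above 0 TPM (0.0614).

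Batf3 and Atf3 are neighbours, 61.4 kb apart on opposite strands, and their mRNAs changed in opposite directions. Batf3 was 4.24 to 9.42 times as abundant as Atf3 in the Riok2hKO libraries and 1.00 to 2.35 times in the WT libraries. Of the 7 tested genes within 250 kb of Batf3, 1 (Atf3) was lower, 0 were higher and the rest did not pass. Among all tested genes 17.1% were called either way, so this count shows nothing particular to the region. Nsl1, a kinetochore gene that lies 13.9 kb from Batf3, averaged 20.2 TPM in Riok2hKO and 19.6 TPM in WT (limma adjusted p = 0.660).

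Jdp2, the gene of a repressor that binds JUN, was listed at 0 TPM in all 10 libraries. Whether that exact 0 reflects the cells or the annotation and mapping behind the table cannot be settled from TPM, and the same holds for the low level of Jund. It lies on chromosome 12 between Fos and Batf, 121 kb from Fos and 46.8 kb from Batf, and both of those neighbours were above 0 in all libraries.

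Among the JUN genes, Jun rose and Junb was dominant. JUN is the classical partner of FOS and a strong activator. Jun (chromosome 4, 95049036 to 95052222) measured 14.04, 11.66, 12.15, 13.30 and 11.04 TPM in Riok2hKO, against 8.12, 8.30, 7.83, 6.88 and 10.05 TPM in WT. All 5 Riok2hKO libraries were above all 5 WT libraries. The means were 12.4 ± 1.22 TPM in Riok2hKO and 8.24 ± 1.15 TPM in WT (SD, n = 5 each), a 1.51-fold ratio. The log2 fold change was 0.54 (SE 0.0903, 95% interval 0.35 to 0.74, limma adjusted p = 0.00202).

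Junb (chromosome 8, 84976909 to 84978748), whose protein pairs with BATF in mouse Th17 cells, measured 965, 976, 947, 993 and 943 TPM in Riok2hKO, against 842, 921, 919, 928 and 933 TPM in WT. The groups were apart, though the lowest Riok2hKO and highest WT values lay close together, and WT replicate 1 was the lowest. The log2 fold change was 0.088 (SE 0.0289, 95% interval 0.025 to 0.15, limma adjusted p = 0.0569), so the difference did not pass. Without WT replicate 1 it was 0.061 (adjusted p = 0.0620). Of the 8 tested members, 3 (Batf3, Jun and Junb) had all Riok2hKO libraries above all WT libraries, against 8.72% of all tested genes, and 0 had them all below, against 5.87% (14.6% either way). Such a count says nothing of size: the ratios of means were 2.997, 1.51 and 1.06.

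Jund (chromosome 8, 70697739 to 70700616), which encodes the JUN protein usually found in resting cells, measured 4.76, 5.25, 4.87, 5.42 and 4.84 TPM in Riok2hKO, against 3.37, 4.06, 4.79, 3.85 and 5.64 TPM in WT. The Riok2hKO values lay within the WT range (log2 fold change 0.19, 95% interval -0.036 to 0.41, limma adjusted p = 0.234). Its transcript is 67.1% G and C, more than 99.8% of tested genes, and the part of base composition in its low level was not tested. Jun, Junb and Jund are single-exon genes, unlike the other members, which have 3 or 4 exons.

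Of the FOS genes, Fosl2 passed the test. FOSL2, also called FRA-2, lacks the strong activation domain of FOS. Fosl2 (chromosome 5, 32136472 to 32157840) measured 11.39, 10.11, 11.09, 9.27 and 9.22 TPM in Riok2hKO, against 7.87, 8.35, 8.76, 9.49 and 8.18 TPM in WT. The groups overlapped, with 3 Riok2hKO libraries above all WT libraries and the rest below WT replicate 4. The log2 fold change was 0.23 (SE 0.0725, 95% interval 0.075 to 0.39, limma adjusted p = 0.0455). This call was close to the threshold and ended with 7 of the 10 libraries left out in turn: Riok2hKO replicate 1, 2 or 3 (adjusted p = 0.09999, 0.0757 and 0.107) and WT replicate 1, 2, 3 or 5 (0.0838, 0.0835, 0.0623 and 0.0883). It also ended with scaling by the median of ratios (0.0502) and with quantile normalization (0.143).

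Fosl1, which encodes the related FRA-1, was the most abundant FOS gene in both groups. Fosl1 (chromosome 19, 5447698 to 5455938) measured 11.29, 11.98, 14.04, 10.09 and 12.74 TPM in Riok2hKO, against 16.51, 13.62, 11.05, 13.91 and 15.13 TPM in WT. The groups overlapped widely (log2 fold change -0.20, 95% interval -0.43 to 0.019, limma adjusted p = 0.198). The ratio of Fosl1 to Fosl2 was 0.991 to 1.38 in the Riok2hKO libraries and 1.26 to 2.10 in the WT libraries, ranges that also overlap.

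Fos (chromosome 12, 85473890 to 85477274), the prototype immediate early gene of the family, measured 7.40, 8.58, 8.88, 8.36 and 8.90 TPM in Riok2hKO, against 7.04, 10.54, 8.88, 8.12 and 10.52 TPM in WT. The Riok2hKO values lay inside the WT range (log2 fold change -0.077, 95% interval -0.29 to 0.14, limma adjusted p = 0.643). Fosb (chromosome 7, 19302696 to 19310118) was the lowest member detected, at 0.20, 0.22, 0.32, 0.080 and 0.14 TPM in Riok2hKO and 0.080, 0, 0.10, 0.24 and 0.080 TPM in WT. A two-sided exact permutation test over all 252 assignments of the libraries gave p = 0.167 for Fosb.

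The order of the members by level differed between the groups below Junb, which held rank 144 of the 23393 genes by mean TPM in Riok2hKO and 154 in WT. In Riok2hKO the order was Junb, Batf3, Jun, Fosl1, Fosl2, Fos, Jund, Atf3, Fosb and Jdp2. There Batf3 was above Jun in 5 of 5 libraries, but Jun and Fosl1 overlapped, as did Fosl1 and Fosl2. In WT the order was Junb, Fosl1, Fos, Fosl2, Jun, Batf3, Atf3, Jund, Fosb and Jdp2. There Fosl1 stood clear of Fos, while each step from Fos down to Jund joined ranges that overlapped, Batf3 among them.

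The members without Junb summed to 74.5, 70.5, 72.0, 73.9 and 67.5 TPM in Riok2hKO, against 52.9, 57.9, 52.8, 53.3 and 63.2 TPM in WT. All Riok2hKO sums were above all WT sums. These sums include Batf3, and with Batf3 left out the groups overlap. Batf3 held 23.2% to 33.5% of that sum in Riok2hKO and 9.79% to 15.8% in WT, and Atf3 held 3.56% to 5.46% in Riok2hKO and 6.73% to 10.8% in WT. A lower share was not particular to Atf3. Fos held 9.93% to 13.2% in Riok2hKO and 13.3% to 18.2% in WT, and Fosl1 13.6% to 19.5% and 20.9% to 31.2%. The share of Jun was higher, 16.3% to 18.8% in Riok2hKO and 12.9% to 15.9% in WT. Since Batf3 is part of the sum, its rise lowers the share of a member whose own TPM does not change. The summed FOS genes were 27.8 to 34.3 TPM in Riok2hKO and 28.8 to 33.9 TPM in WT, nearly the same range. With Junb included, Junb alone held 92.8% to 93.3% of the family's TPM in Riok2hKO and 93.6% to 94.6% in WT. These sums rest on the same values as the single members and were given no test.

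**Figure D3:**
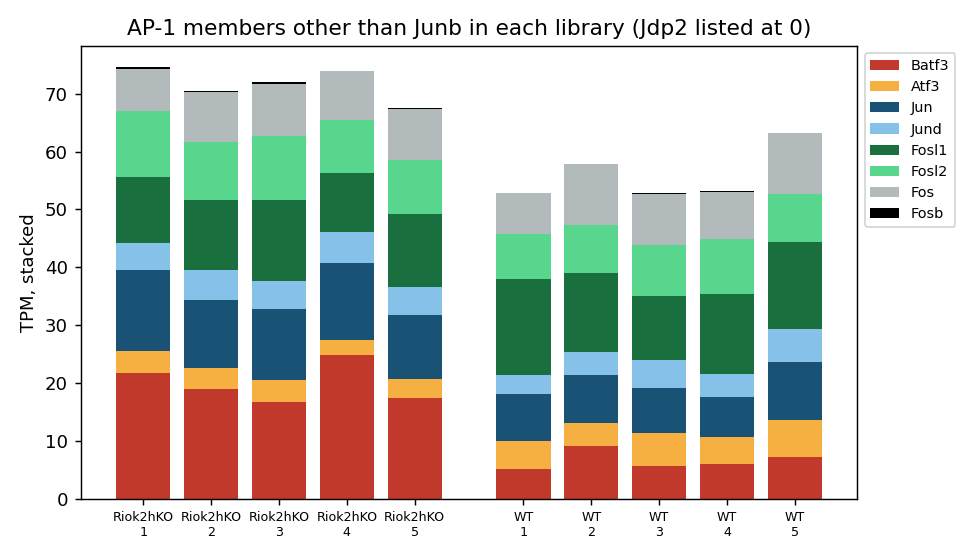
Stacked TPM of the members other than Junb in each Riok2hKO library (left) and each WT library (right). The red Batf3 segment is 16.7 to 24.8 TPM in Riok2hKO and 5.18 to 9.15 TPM in WT, while the green, grey and black FOS segments together are 27.8 to 34.3 TPM in Riok2hKO and 28.8 to 33.9 TPM in WT.

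The genes around AP-1 were read from lists, chosen with earlier results of these data known, by counts alone. Among 25 other genes of the basic zipper class, 19 were tested, of which 2 rose and 3 fell (median log2 fold change -0.013), or 26.3% called against 17.1% of all tested genes. Nfil3, a zipper factor that mouse Th17 and innate lymphoid cells use, averaged 32.9 TPM in Riok2hKO and 17.9 TPM in WT (log2 fold change 0.86, limma adjusted p = 0.00200). Crem, a cyclic AMP-responsive factor, rose by 0.35 on the log2 scale (adjusted p = 0.00266). Ddit3, which encodes CHOP, averaged 26.4 TPM in Riok2hKO and 39.9 TPM in WT (log2 fold change -0.58, adjusted p = 0.00300), Nfe2l1 fell by 0.26 (adjusted p = 0.0172), and Atf4, an activator of Atf3 and Ddit3, fell by 0.13 (adjusted p = 0.0343). The Atf4 call ended (adjusted p = 0.0562 to 0.0848) when any of Riok2hKO replicates 1, 3 and 4 or WT replicates 1, 2 and 4 was left out.

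Of 12 tested genes for factors that share composite DNA sites with AP-1, 6 rose and 1 fell (median 0.22), or 58.3% called against 17.1% of all tested genes. NFAT proteins bind beside FOS and JUN, and Nfatc2 averaged 17.4 TPM in Riok2hKO and 10.3 TPM in WT (log2 fold change 0.70, limma adjusted p = 0.000313). Ets1 rose by 0.26, Runx3 by 0.44 and Irf4 by 0.19 (adjusted p = 0.00190, 0.00264 and 0.00690). Irf4 and Irf8 encode the factors that bind with BATF and JUN, and they parted: Irf4 averaged 120 TPM in Riok2hKO and 105 TPM in WT, whereas Irf8 averaged 45.2 TPM in Riok2hKO and 63.2 TPM in WT (log2 fold change -0.46, adjusted p = 0.00554). The number that fell was 2 without WT replicate 5.

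In the MAP kinase cascade, which phosphorylates JUN and FOS and induces their genes, 4 of 29 tested members rose and 2 fell (median 0.072). That is 20.7% called, close to the 17.1% of all tested genes, so the count shows nothing particular to the cascade. Gadd45g, an activator of the p38 and JNK branches, averaged 111 TPM in Riok2hKO and 78.1 TPM in WT (log2 fold change 0.50, limma adjusted p = 0.000175). Map2k6 and Map2k3, which encode the kinases upstream of p38, fell by 0.53 and 0.17 (adjusted p = 0.00118 and 0.00732). Map2k4 and Map3k8 rose by 0.34 and 0.23 (adjusted p = 0.0287 and 0.0284), and both calls ended without Riok2hKO replicate 4 or 5, where 2 genes of the list rose. Leaving out Riok2hKO replicate 3 or WT replicate 5 also ended the Map2k4 call (adjusted p = 0.0546 and 0.0547). The same held for Map3k8 (0.0581 to 0.0625) on leaving out Riok2hKO replicate 2 or any of WT replicates 2, 3 and 5.

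The lists of transcription factors that switch on AP-1 genes and of factors that remove AP-1 proteins or mRNAs each had 2 of 14 tested members higher and 0 lower (medians 0.073 and 0.035), or 14.3% called in each, against 17.1% of all tested genes. These counts are at the background and show nothing particular to the lists. These were Crtc3 and Mef2a in the first list and Zfp36l2 and Det1 in the second, at log2 fold changes of 0.25 to 0.58. Both counts changed in most fits with 1 library left out, the first in 7 of 10 and the second in 9 of 10. The first count fell to 0 when any of Riok2hKO replicates 2, 4 and 5 and WT replicates 1 and 2 was left out, and to 1 for replicate 3 of either genotype. The second fell to 0 for any of Riok2hKO replicates 4 and 5 and WT replicates 1, 2 and 5, and to 1 for Riok2hKO replicates 1, 2 and 3 and for WT replicate 3. Without WT replicate 1, 1 gene of the second list was lower.

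Fos is induced together with other immediate early genes, and those were mixed. Of 18 tested genes 4 rose and 2 fell (median 0.027), or 33.3% called against 17.1% of all tested genes. Ier3, Klf6, Btg1 and Dusp5 rose by 0.58, 0.16, 0.28 and 0.51 on the log2 scale (limma adjusted p = 0.000433, 0.0133, 0.0195 and 0.0226). Btg2 and Egr1 fell by 0.29 and 0.20 (adjusted p = 0.00138 and 0.0103). Dusp5 lost its call without Riok2hKO replicate 5 (0.0538) or WT replicate 5 (0.0521). Without WT replicate 1, 5 genes of the list fell. In that library Ier2 was at 88.4 TPM, against 211 to 224 TPM in the other WT libraries, and Dusp2 at 34.5 TPM, against 197 to 274 TPM, while Fos was at 7.04 TPM, the lowest of all 10 libraries.

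Of 21 tested genes known as AP-1 targets in T cells or other cells, 8 rose and 3 fell (median 0.14), or 52.4% called against 17.1% of all tested genes. Those with the smallest p were Il17f, Il2ra, Il23r and Il21 upwards (log2 fold changes 1.74, 0.74, 2.08 and 0.95) and Fasl, Ccl4 and Ccl3 downwards (-0.71, -0.55 and -0.58). Of 7 classical targets outside T cells in the list, picked out after the values were seen, Timp1 and Vim passed, Plaur, Cd44 and Lgals3 did not (log2 fold changes 0.11, 0.016 and -0.15, limma adjusted p = 0.654, 0.863 and 0.169), and Ccnd1 and Mmp9 were too low to be tested. Timp1, a metalloproteinase inhibitor, averaged 410 TPM in Riok2hKO and 170 TPM in WT (log2 fold change 1.25, limma adjusted p = 1.35e-05), and the intermediate filament gene Vim averaged 635 TPM in Riok2hKO and 349 TPM in WT (0.86, adjusted p = 4.11e-05). Il2, the textbook gene driven by NFAT with AP-1, did not pass (log2 fold change -0.065, 95% interval -0.21 to 0.075, adjusted p = 0.533).

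**Figure D4:**
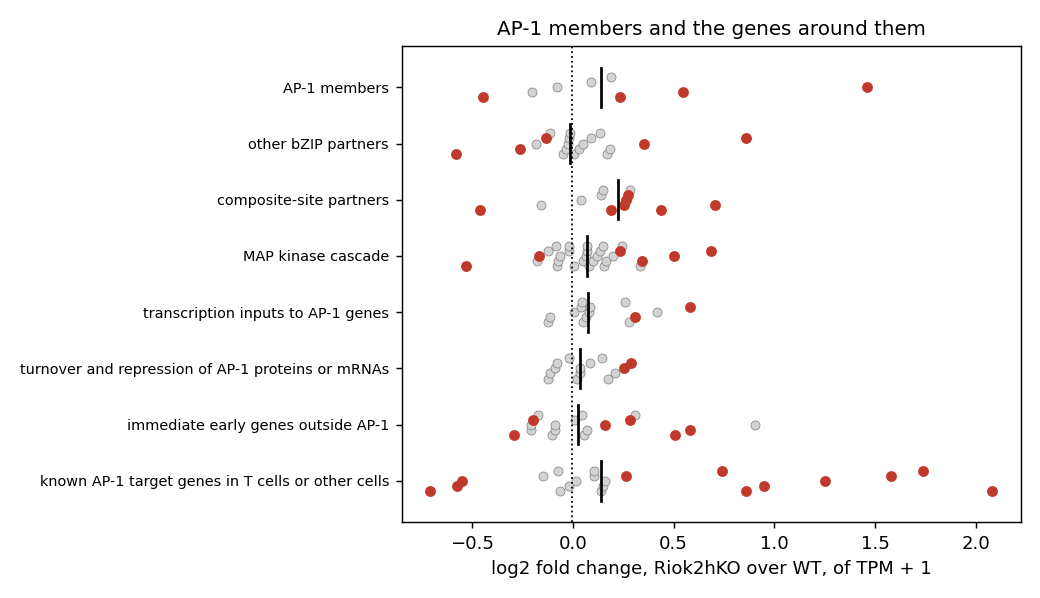
Log2 fold change, Riok2hKO over WT, of each tested gene in the AP-1 list and in the 7 lists around it. Red points passed at an adjusted p under 0.05, grey points did not, black bars are list medians and the dotted line is the median of all tested genes. Red points stand on both sides of that line in 6 of the 8 lists drawn.

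Batf3 and Jun kept their calls with any 1 library left out. The log2 fold change of Batf3 was 1.38 to 1.57 in those fits (limma adjusted p = 2.37e-05 to 0.000273) and that of Jun 0.49 to 0.61 (0.000922 to 0.00730). The count of members called higher was 2 or 3, and the count called lower 0 or 1.

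**Figure D5:**
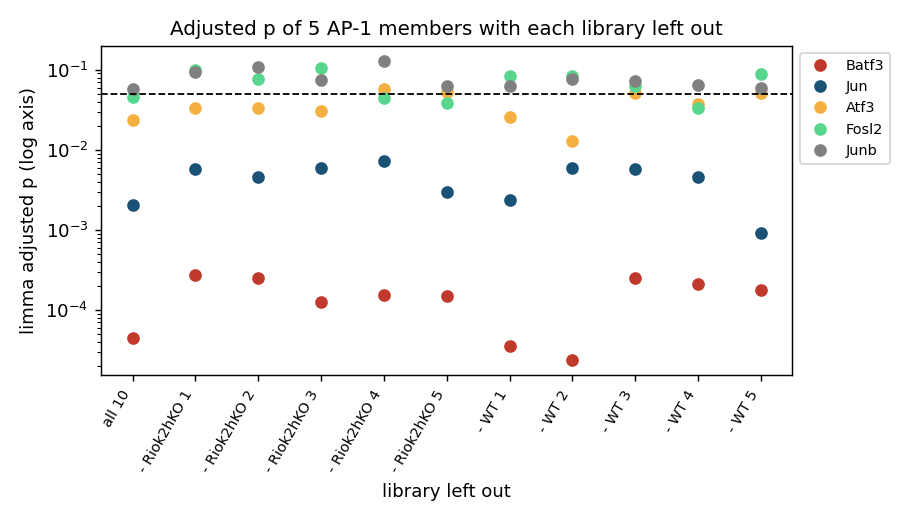
Adjusted p, on a log axis, of 5 members with all 10 libraries and with each library left out in turn (Riok2hKO libraries left, WT libraries right). The dashed line is 0.05. Batf3 and Jun stay below it at every step, Junb stays above it, and Atf3 and Fosl2 cross it.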

How the data were processed

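RNA of 10 sorted libraries (5 Riok2hKO and 5 WT) was made into SMART-seq2 libraries with 10 cycles of cDNA amplification and read as 38-nucleotide pairs, per the labels' protocols. The deposited values are TPM: per the labels' protocols, the authors used Bowtie on the mm10 transcriptome and then RSEM for abundance, and the submitters' processing notes give RSEM 1.2.8. The Bowtie version and gene annotation are not given in the sources used here. Since TPM sets every library to the same sum, depth is unknown and no counting error can be given. The method marks no strand.

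Of 23420 rows, 27 whose symbol had become a calendar date were left out. Testing used limma 3.58.1 under R 4.3.3 on log2(TPM + 1), for genes that reached 1 TPM in 5 or more of the 10 libraries, with a mean-variance trend, a genotype term and Benjamini-Hochberg adjustment over all tested genes. The scale understates changes of low genes. Ratios are of mean TPM. The fit was also run on simulated data with independent noise, where changes were added only to genes at higher levels. That run does not cover the calls of low genes such as Atf3. The members and lists were chosen with earlier results of these data known. Named genes are Riok2, the 10 members and, per list and direction, up to 4 called genes with the smallest p. A gene that this rule names is not reported here. Others (Timp1, Vim, Plaur, Cd44, Lgals3, Ccnd1, Mmp9, Il2, Batf, Nsl1, Ier2, Dusp2, Ahr and the cell markers) were chosen after their values were seen. Gene positions, promoters (RefSeq, GRCm38.p6, the assembly of mm10; 9 of 10 members matched a promoter) and transcript GC content and exons (GENCODE, longest coding transcript, 9394 tested genes matched) came from reference tables. Alternatives were 10 fits with 1 library left out and 13 other settings. Figures used matplotlib 3.10.9.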

Additional observations from a re-analysis of the deposited data

Results flagged for a closer look

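Junb in WT replicate 1, at 842 TPM, stood apart from the other WT libraries, at 919 to 933 TPM: its gap to the nearest of them was 0.854 of the group's range, above the 0.71 that Dixon's test allows for 5 samples. It was 1 of 18 sets of 5 values examined, where chance gives about 1 in 20. Ier2 and Dusp2 were low in the same library. The part of that library in the Junb difference is given by the fit without it, 0.061 against 0.088 on the log2 scale.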

How the results depend on the processing

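Batf3 and Jun were called higher under all 13 other settings and with each library left out. Their log2 fold changes over those settings were 1.10 to 1.58 and 0.40 to 0.59. The count of members called higher was 2 to 4, where Junb passed with the number of genes above 0 TPM as a covariate (adjusted p = 0.0102). The count called lower was 0 with no filter on low values, with either number of detected genes as a covariate, and with a filter on a mean of at least 5 TPM, which leaves Atf3 untested; it was 0 to 1 with 1 library left out. Fosl2 lost its call with 6 settings (adjusted p = 0.0502 to 0.156) and Atf3 with 3 (0.0520 to 0.0639). No member changed sign. The count of all changed genes was 1770. It was 821 with the number of genes of at least 1 TPM as a covariate, an alternative chosen after seeing the data, and 1199 to 1749 with 1 library left out. The cause of these differences in count was not tested.

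Whether libraries with the same replicate number belong together is not stated in the labels. The correlation of same-numbered deviations was -0.034 to 0.068, which cannot show whether they share an origin. With the replicate block 1444 genes were called, 880 higher and 564 lower. Batf3, Jun and Atf3 were still called and Fosl2 was not (adjusted p = 0.0897). Quantile normalization gave 843 higher and 951 lower genes, against 990 and 780. Members near 5 TPM or below (Atf3, Jund, Fosb) are limited by unknown depth.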
